A study of Mus musculus with 80 samples.

Results

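The arrays described here were the 14 of 42 chow arrays of mouse subcutaneous white adipose tissue with the highest skeletal muscle signal, set against the 14 chow arrays with the lowest. The muscle signal of an array was the mean deposited value of 4 genes of the contractile apparatus, namely the fast myosin heavy chain Myh4, the fast fibre actin crosslinker Actn3, the giant spring protein Ttn (titin) and the thin filament ruler Neb (nebulin). The remaining 14 chow arrays lay between the groups and were left out of the contrast, as were the 4 genes of the score among the 38827 genes with a symbol, which left 38823 genes tested. Because the arrays were chosen on measured muscle genes, differences in muscle genes are given below as a description, and no p-value is given for them. Counts of muscle genes called higher use the threshold of the fit. They too describe the chosen arrays and test nothing.

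The series measured 80 Affymetrix arrays, 42 of mice on chow and 38 of mice on a high fat diet, in 42 strains: 40 BXD strains, recombinant inbred lines whose genomes mix those of DBA/2J and C57BL/6J, plus these parents themselves. All animals were males, 29 weeks old, killed after a fast from 6 pm to 9 am. Both groups of the contrast had eaten standard chow throughout, whereas the high fat animals used for comparison had changed diet at week 8. For each array, equal amounts of RNA from some 5 animals sharing strain and diet were combined, so every strain had 1 pool per diet, the 28 arrays of the contrast came from 28 different strains, and the spread between arrays combines strain, pool and array. No array batch or hybridization date is given. The high group held BXD44, BXD45, BXD49, BXD50, BXD55, BXD56, BXD66, BXD70, BXD87, BXD90, BXD95, BXD96, BXD100 and BXD103. The low group held BXD51, BXD61, BXD63, BXD65, BXD73, BXD75, BXD79, BXD80, BXD83, BXD92a, BXD97, BXD98 and both parents.

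Skeletal muscle is built of fast and slow fibres, which carry different forms of the same proteins. Fast fibres use the myosin heavy chains Myh4, Myh1 and Myh2, the calcium buffer Pvalb and glycogen-based energy supply, while slow fibres use Myh7 and rely more on mitochondria. Subcutaneous fat lies between the skin and the muscle of the body wall and limbs, and fat cells themselves do not build sarcomeres, the contractile units of muscle.

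The promoters of the genes with the largest differences are shown because members of the muscle lists differed together between the groups. They are RefSeq sequences of build GRCm38.p6 that run from 250 bases before to 50 bases after the annotated start, on the strand of the gene. CAGCTG, which reads the same on both strands and is a form of the E-box bound by MyoD-family factors, and matches to the MEF2 consensus are in capitals. Atp2a1 encodes the calcium pump of fast fibres (chr7:126463024-126463323, minus strand), Ppp1r3a a muscle subunit that brings protein phosphatase to glycogen (chr6:14755225-14755524, minus strand), and Pygm the glycogen phosphorylase of muscle (chr19:6384158-6384457, plus strand).
Atp2a1: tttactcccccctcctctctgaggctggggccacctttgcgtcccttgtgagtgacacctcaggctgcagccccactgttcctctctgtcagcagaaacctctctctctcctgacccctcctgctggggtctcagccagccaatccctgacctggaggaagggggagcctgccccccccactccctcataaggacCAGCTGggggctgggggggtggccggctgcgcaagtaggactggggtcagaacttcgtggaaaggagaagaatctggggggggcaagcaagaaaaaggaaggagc
Ppp1r3a: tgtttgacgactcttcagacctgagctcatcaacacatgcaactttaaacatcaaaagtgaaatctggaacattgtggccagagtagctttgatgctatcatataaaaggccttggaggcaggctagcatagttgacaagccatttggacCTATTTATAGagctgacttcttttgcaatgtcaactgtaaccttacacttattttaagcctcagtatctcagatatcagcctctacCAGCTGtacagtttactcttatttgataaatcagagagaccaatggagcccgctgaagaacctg
Pygm: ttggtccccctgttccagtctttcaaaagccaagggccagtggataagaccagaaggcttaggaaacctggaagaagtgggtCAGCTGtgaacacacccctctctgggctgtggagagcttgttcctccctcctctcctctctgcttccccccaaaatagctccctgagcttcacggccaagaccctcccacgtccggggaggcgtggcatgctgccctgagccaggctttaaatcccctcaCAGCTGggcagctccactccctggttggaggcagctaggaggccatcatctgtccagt
CAGCTG occurred 1 time in the Atp2a1 window, 1 time in that of Ppp1r3a and 2 times in that of Pygm, and the MEF2 consensus occurred 1 time, in Ppp1r3a. Of the 135 genes of the muscle lists, score genes included, 91 had a promoter in the table, and 45 of their 116 windows (38.8%) held CAGCTG, against 5355 of all 32851 windows (16.3%). The MEF2 consensus, searched on both strands since it reads alike on both, was in 17 of the 116 windows (14.7%), against 1047 of the 32851 (3.19%). These are counts of letters in a window, and binding was not measured.

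Values are the deposited scores, which average 8 on every array and have an SD of 2 across features. Such a scale unit thus equals 0.5 SD of an array; it is not a log2 unit and gives no fold change. Probe sets differ in brightness, so levels are compared between arrays for the same gene only. The labelled tissue is fat, and the mean of the fat cell identity list of 20 genes was 13.56 to 14.02 scale units in the high arrays and 13.5 to 14.2 in the low arrays. Adipoq, which encodes the fat cell hormone adiponectin, lay between 12.8 and 13.4 in the high arrays (median 13.1) and between 12.8 and 13.5 in the low arrays (median 13.2). Both lay above the array mean of 8 in every array of both groups, as did the muscle score, so these levels alone do not set fat apart from muscle. Strain labels were checked between diets with the 100 genes outside the muscle lists whose levels fell most clearly into 2 clusters. The chow array correlated best with the high fat array of its own label in 22 of 38 strains, with r between 0.80 and 0.96. In the other 16 strains the own-label r was between -0.30 and 0.66 and another label's high fat array correlated better. For BXD43 that was a near tie (0.66 with its own label, 0.72 with BXD63), and for BXD63 the best match was itself weak (0.48 with DBA/2J, 0.03 with its own label). In the other 14 the best match had r between 0.65 and 0.89, against at most 0.44 with the own label. These matches were orderly. BXD51 matched BXD55 best (0.65) and BXD55 matched BXD51 (0.89). From BXD79 to BXD95 each chow array matched an earlier label best, such as BXD79 with BXD73 (0.89) and BXD95 with BXD89 (0.74). BXD73 and BXD75 matched BXD90 and BXD95. No array was moved to another label, and the cause was not tested. The 16 include 4 of the high group (BXD55, BXD87, BXD90 and BXD95) and 7 of the low group (BXD51, BXD63, BXD73, BXD75, BXD79, BXD80 and BXD83). The contrast between chow arrays uses no strain label, and strains are named below only as labels of arrays.

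The score averaged 14.02 ± 0.44 scale units in the high arrays and 9.66 ± 1.14 in the low arrays (SD, n = 14 each). The high group was compact at its lower end, and 10 of its 14 arrays lay between 13.74 and 13.90, with BXD55 (15.1), BXD45 (14.7), BXD56 (14.4) and BXD90 (14.1) above them. The low group was spread over 8.01 in BXD80 to 11.8 in BXD51. The array just inside the high group, BXD96, had 13.737 and the array just outside it, BXD43, had 13.733, so the upper boundary separated near-equal arrays. At the lower boundary BXD51 had 11.8 and BXD89, just outside, had 12.3. C57BL/6J (9.85) and DBA/2J (8.46) were both in the low group.

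**Figure D1:**
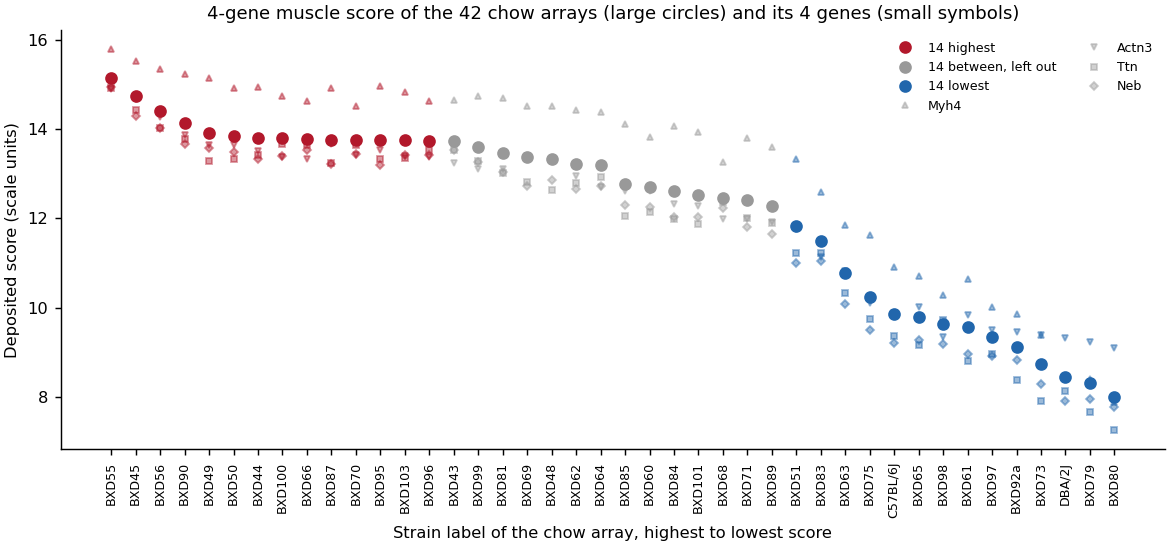
Score of each of the 42 chow arrays in scale units (large circles, vertical axis), ordered from highest to lowest with strain labels on the horizontal axis; small symbols give the 4 genes of the score. The 14 highest arrays (red, left) run from 15.1 to 13.7, the 14 between are grey, and the 14 lowest (blue, right) fall away from 11.8 to 8.01.

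The 4 score genes did not overlap between the groups. Myh4 lay between 14.5 and 15.8 in the high arrays (median 14.9) and between 7.89 and 13.3 in the low arrays (median 10.5). Ttn lay between 13.2 and 14.9 in the high arrays (median 13.6) and between 7.26 and 11.2 in the low arrays (median 9.06). Neb and Actn3 were likewise separate, with differences of 4.50 and 3.83 scale units. These values define the groups.

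Across all genes tested, 608 were higher in the high arrays (1.57% of 38823) and 16 were lower (0.0412%), by limma's moderated test at an adjusted p under 0.05. In 155 genes (0.399%) every high array exceeded every low array, and in none of the 16 was every high array below every low array. Of the 608, 86 were in a muscle list, 8 were in another list only and 514 were in no list, 252 of the 608 being predicted or clone models that are not named here. The differences were unequal in size, since 50 of the 608 reached 2 scale units, 121 reached 1 (60 of them in the muscle lists) and 279 reached 0.5. The median was 0.47 among the genes called higher, -0.22 among those called lower and -0.01 over all genes. The 14 arrays between the groups were placed there by the same score, so intermediate means were likely from the outset and test nothing. In them the mean of each of the 608 genes lay between the means of the high and the low arrays. The same held for 13 of the 16 lower genes, and not for Ghr and 2 predicted models.

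The 10 muscle lists with 131 genes besides the score genes were examined, and 86 of the 131 were higher, none was lower and 45 did not pass the test, with a median difference of 0.93 scale units. In 64 of the 131 every high array exceeded every low array. Over all genes tested, 1.57% were higher, 0.0412% were lower and 0.399% had every high array above every low array. The lists were drawn up with results of these data known, and the score shares its origin with them, so these counts describe the contrast and do not test it.

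Genes of the fast fibre contractile apparatus had the largest differences, with all 12 of 12 higher and a list median of 3.14 scale units. Atp2a1 lay between 14.1 and 15.6 in the high arrays (median 14.3) and between 8.59 and 12.2 in the low arrays (median 10.1), a difference of 4.42 ± 0.31 (SE). Tnnt3, the fast skeletal troponin T, lay between 12.9 and 14.7 in the high arrays (median 13.5) and between 8.53 and 11.5 in the low arrays (median 9.77). Mybpc2, the fast form of myosin-binding protein C, lay between 11.3 and 13.6 in the high arrays (median 11.96) and between 8.34 and 10.1 in the low arrays (median 8.61). For these 3 genes no low array reached any high array. Of the 12, the groups overlapped only in Myh1 and Myh2.

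Slow fibre genes differed less by comparison. In the high arrays 9 of the 12 averaged under 9 scale units, against 0 of the 12 fast fibre genes. The part that low probe set signal has in this was not tested. Mybpc1, the slow form of myosin-binding protein C, was the 1 of 12 past the threshold, against 1.57% of all genes called higher. The list median was 0.29. Mybpc1 lay between 8.31 and 13.6 in the high arrays (median 10.2) and between 7.82 and 10.04 in the low arrays (median 8.12), so the groups overlapped. Myh7, the slow myosin heavy chain, lay between 7.94 and 11.1 in the high arrays (median 8.24) and between 7.81 and 8.28 in the low arrays (median 7.94), and 7 of the 14 high arrays lay above every low array. Csrp3, a LIM protein of the Z-disc, averaged 8.96 ± 0.74 in the high arrays and 8.25 ± 0.15 in the low arrays (SD, n = 14 each).

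Genes that hold the sarcomere together differed almost as a whole. In the Z-disc and M-band list 17 of 19 were higher, with a median of 1.89 scale units. Myot (myotilin), a crosslinker of Z-disc actin, lay between 11.2 and 13.9 in the high arrays (median 11.9) and between 7.32 and 10.01 in the low arrays (median 8.09). The actin-binding scaffold genes Xirp2 and Nrap differed by 3.22 and 3.02 scale units, and neither overlapped. Intermediate filament and thin filament genes outside the lists followed, with Des (desmin) higher by 2.15 and Tpm2 (beta-tropomyosin) by 2.54.

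In the machinery that couples excitation to contraction, 16 of 17 genes were higher, with a median of 1.40. Trdn (triadin), which anchors calsequestrin at the calcium release channel, lay between 10.4 and 12.6 in the high arrays (median 10.9) and between 6.71 and 8.58 in the low arrays (median 7.39). Mylk4, a kinase of the myosin light chain kinase family, differed by 3.49, and Casq1, the calcium store protein of fast fibres, by 3.20. The groups did not overlap in any of these 3 genes.

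Muscle enzymes of energy supply were higher in 15 of 18 cases, with a median of 1.53. Pygm lay between 13.2 and 14.9 in the high arrays (median 13.7) and between 9.02 and 11.5 in the low arrays (median 9.66). Ampd1, the muscle AMP deaminase, differed by 3.09 and Ckm, the muscle creatine kinase, by 3.08. Ppp1r3a, which was in no list, lay between 10.002 and 12.5 in the high arrays (median 10.6) and between 5.79 and 8.48 in the low arrays (median 6.66), a difference of 4.09. Genes of muscle protein turnover and chaperones were higher in 17 of 18 cases, with a median of 1.499, led by the kelch-repeat genes Klhl31 (3.52) and Klhl41 (3.05) and by Txlnb (2.60).

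The lists for muscle membranes, nerve contacts and muscle precursors had list medians between 0.11 and 0.18. Their counts stand beside 1.57% called higher over all genes. In the dystrophin complex 2 of 8 genes were higher, Sgca (alpha-sarcoglycan) by 0.89 and Dmd (dystrophin) by 0.86. At the neuromuscular junction 2 of 9 were higher, the receptor kinase Musk by 0.80 and the acetylcholine receptor subunit Chrna1 by 0.29. This list was low, and 8 of its 9 genes averaged under 9 scale units in the high arrays. Among 10 myogenic regulators and satellite cell genes 3 were higher, the growth inhibitor Mstn (myostatin) by 2.34, the late myogenic factor Myf6 by 1.92 and Mef2c by 0.55. Pax7, the marker of satellite cells, lay between 8.71 and 9.09 in the high arrays (median 8.84) and between 8.56 and 9.12 in the low arrays (median 8.85). The Pax7 ranges therefore covered nearly the same interval.

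Of 8 muscle microRNA genes 1 was higher (Mir133a-1, by 0.55), against 1.57% of all genes. The list averaged 5.97 scale units in the high arrays, below the array mean of 8, which limits what it can show. The muscle microRNA gene Mir206 lay between 5.83 and 6.20 in the high arrays (median 5.99) and between 5.74 and 6.12 in the low arrays (median 5.92), and the groups overlapped. Its main mature product is shown with the seed, bases 2 to 8, in capitals (RefSeq, GRCm38.p6, chr1:20679055-20679076, plus strand); the probe set reads the gene and not this product.
mmu-miR-206-3p: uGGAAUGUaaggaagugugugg

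Other genes in no list had the same pattern. Hfe2 (hemojuvelin), a coreceptor of the iron hormone pathway made in muscle, differed by 2.40, and Apobec2, a muscle-expressed member of the cytidine deaminase family, by 2.36. The titin-binding gene Ankrd23 differed by 2.04, the actin-regulating gene Abra by 1.82 and Pde4dip (myomegalin) by 1.80. Mlf1 and Lrrc2 differed by 2.00 and 1.90. The amino acid transporter Slc38a4 differed by 1.84 and, unlike these, overlapped between groups, since its low arrays reached 9.68 and its high arrays began at 8.67. Klhl38 differed by 2.32 on the probe set used and by 0.32 on its other probe set.

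**Figure D2:**
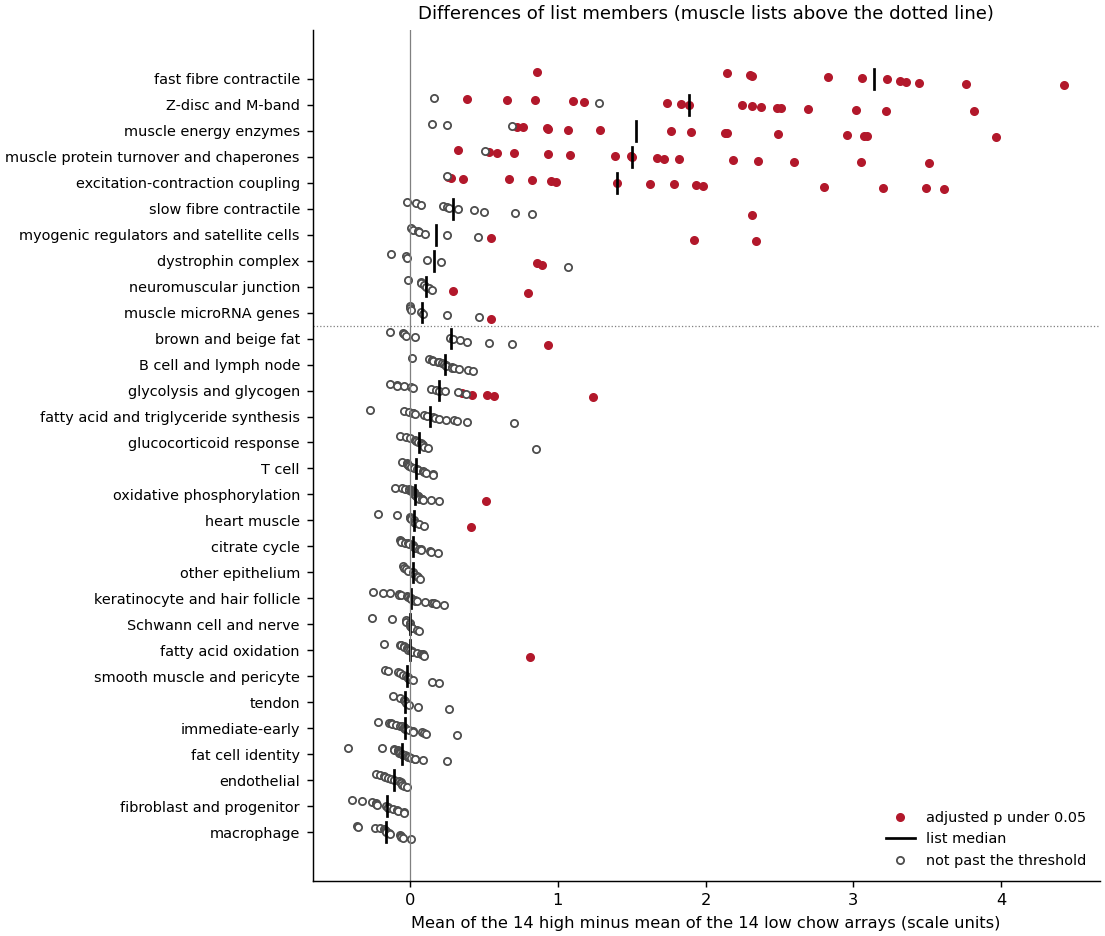
Difference of each list member (points) between the 14 high and the 14 low chow arrays in scale units (horizontal axis), by gene list (vertical axis); filled red points passed an adjusted p under 0.05, open points did not, and black bars are list medians. The fast fibre list has a median of 3.14 and all 12 points filled, while the fat cell identity list has a median of -0.05 and no filled point. The arrays were chosen on muscle genes, so filled points in the muscle lists are a description and no test.

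None of the 20 fat cell identity genes passed the test (median difference -0.05), a count near the background of 1.57% higher and 0.0412% lower over all genes, nor any of the 16 in the list for making fatty acids and triglycerides (median 0.13). Adipoq differed by -0.07 (adjusted p = 0.94, limma) and Pparg, a nuclear receptor needed to form fat cells, by -0.19 (adjusted p = 0.625). Lep, which encodes leptin, averaged 13.4 ± 0.89 in the high arrays and 13.8 ± 0.72 in the low arrays (SD, n = 14 each; adjusted p = 0.887). The complement factor Cfd differed by 0.085 (adjusted p = 0.971) and the fatty acid synthase Fasn by 0.32 (adjusted p = 0.944). In bulk tissue, fewer cells of a type and less RNA per cell cannot be told apart.

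Energy metabolism genes shared between tissues were mostly within the spread. In glycolysis and glycogen metabolism 5 of 17 were higher. The largest difference in this list was 1.24, and in 1 of the 17 every high array exceeded every low array, against 0.399% of all genes. Among the 5 the aldolase Aldoa lay between 12.2 and 13.1 in the high arrays (median 12.6) and between 11.5 and 12.6 in the low arrays (median 12.1), a difference of 0.57 with overlapping groups. In oxidative phosphorylation 1 of 33 was higher (Atp5g1, a subunit of ATP synthase, by 0.51), in fatty acid oxidation 1 of 17 (Cpt1b, the muscle carnitine palmitoyltransferase, by 0.81) and in the citrate cycle none of 16. Over all genes 1.57% were higher and 0.0412% lower, so 1 call or none in lists this short is near that background. The liver-type Cpt1a differed by -0.17 (adjusted p = 0.935). In the brown and beige fat list 1 of 12 was higher, Cox7a1 by 0.93, a subunit of cytochrome c oxidase that muscle also makes and that stands in a muscle list too. Ucp1, the defining brown fat gene, lay between 6.99 and 10.1 in the high arrays (median 8.59) and between 6.96 and 11.6 in the low arrays (median 7.38), with an adjusted p of 0.923.

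Marker lists of other cell types were compared in the same fit. In the heart list 1 of 11 was higher, Myh6 by 0.41, and the list mean ran from 8.14 to 8.56 in the high arrays and from 8.11 to 8.46 in the low arrays. None passed among 12 smooth muscle, 19 keratinocyte, 11 Schwann cell, 8 tendon, 16 B cell, 14 T cell, 15 macrophage, 13 endothelial and 14 fibroblast genes. Over all genes 1.57% were higher and 0.0412% lower, so lists this short would hold few calls or none at that background. These counts therefore do not show that the cell types were equal. Differences ran from -0.23 to -0.02 in the endothelial list and from -0.39 to -0.04 in the fibroblast list, so all members were lower. The macrophage list had a median of -0.17. In the B cell list all members were higher, by 0.02 to 0.43. Whether members of a list shift together was not tested. The keratinocyte and tendon lists averaged only 8.30 and 7.67 in the high arrays, which limits what they can show. The keratinocyte gene Krt14 averaged 8.37 ± 0.19 in the high arrays and 8.37 ± 0.34 in the low arrays and the smooth muscle actin Acta2 12.9 ± 0.68 in the high arrays and 13.02 ± 0.65 in the low arrays (SD, n = 14 each). The B cell list mean ran from 9.13 to 11.3 in the high arrays and from 8.57 to 11.4 in the low arrays, with a median difference of 0.24. With the B cell and keratinocyte means as covariates, 611 genes were higher.

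Genes lower in the high arrays were few and the differences small. None of the 16 reached -0.5, and 10 of them were predicted or clone models. The other 6 were chosen after their values were seen. Pnp and its near-identical neighbour Pnp2, which encode purine nucleoside phosphorylase and may share signal, differed by -0.33 and -0.27. Ghr, the growth hormone receptor, lay between 11.9 and 12.6 in the high arrays (median 12.3) and between 12.3 and 12.7 in the low arrays (median 12.5), a difference of -0.25 (adjusted p = 0.037, limma). Mir379, the pseudogene Tyms-ps and the mitochondrial nuclease gene Exog differed by -0.26, -0.20 and -0.13. After centring each array on its fat cell genes 0 genes were lower and none of the 16 remained. With 10 arrays per side 3 of the 16 remained, with 21 per side 1, and with a continuous score 4. The count of lower genes was 36 without the array labelled C57BL/6J, 30 without BXD73 and 7 without BXD98.

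The genes with the most negative mean differences did not pass the test. Rufy4, a vesicle trafficking gene, averaged 9.67 ± 0.99 in the high arrays and 10.6 ± 0.98 in the low arrays (SD, n = 14 each; adjusted p = 0.426, limma). Ctse, which encodes the protease cathepsin E, differed by -0.70 (adjusted p = 0.724) and the metalloproteinase inhibitor Timp4 by -0.51 (adjusted p = 0.233). The 12 most negative named genes spanned -0.93 to -0.40.

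Fibre type genes varied unequally among the high arrays. Myh4 varied over 1.26 scale units among the 14, between 14.5 and 15.8, and Pvalb over 1.65. Myh1, a further fast myosin, varied over 3.82, Myh2, the fast oxidative myosin, over 4.45, Mybpc1 over 5.34 and Myh7 over 3.19. Myh7 was 11.1 in BXD55, 10.1 in BXD70, 9.74 in BXD66, 9.33 in BXD45, 9.11 in BXD100 and 9.09 in BXD96, and between 7.94 and 8.37 in the other 8. The 6 arrays with the highest Myh7 were also the 6 highest in Mybpc1 (11.7 or more), in Myh2 (12.1 or more) and in Myh1 (12.8 or more). BXD49 stood at the other end, with Myh4 at 15.1 but Mybpc1 at 8.31 and Myh2 at 9.66. Pvalb followed another order, with its highest values in BXD55 (13.4), BXD45 (13.1), BXD87 (12.98), BXD56 (12.9) and BXD90 (12.8).

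These genes were chosen after their values in the 14 high arrays were seen, and were then examined in 2 further sets of arrays. In the 14 high arrays, as a description, Pearson r of Myh7 was 0.93 with Mybpc1, 0.92 with Myh2, 0.92 with Myh1 and 0.29 with Pvalb, and Spearman rho was 0.86, 0.90, 0.83 and 0.10 in the same order. Across the 13 high fat arrays with the highest score of their own, r was 0.94 with Mybpc1 (permutation p = 2e-05; rho = 0.93, p = 4e-05) and 0.92 with Myh2 (permutation p = 1e-05, the smallest these resamples can give; rho = 0.93, p = 4e-05). There r was 0.82 with Myh1 (permutation p = 0.0001; rho = 0.87, p = 0.00021) and 0.41 with Pvalb (permutation p = 0.161; rho = 0.59, p = 0.0384). Across the 14 chow arrays between the groups, r was 0.60 with Mybpc1 (permutation p = 0.0191; rho = 0.66, p = 0.013) and 0.66 with Myh2 (permutation p = 0.00672; rho = 0.69, p = 0.00777). There r was 0.59 with Myh1 (permutation p = 0.0234; rho = 0.69, p = 0.00765) and 0.14 with Pvalb (permutation p = 0.632; rho = 0.25, p = 0.389). These were 8 tested relations, and after Benjamini-Hochberg adjustment the 6 with Mybpc1, Myh2 and Myh1 had p between 8e-05 and 0.0313, and both with Pvalb between 0.183 and 0.632. Without the 2 arrays farthest from the median of Myh7 (BXD73 and BXD63), r in the high fat arrays was 0.89, 0.85 and 0.64 with Mybpc1, Myh2 and Myh1. In the arrays between, r without BXD99 and BXD68 was 0.42, 0.52 and 0.46 with the same genes, and none of the 3 passed (permutation p = 0.172, 0.076 and 0.129). All are muscle genes read on the same arrays, and both sets of arrays were defined by the muscle score. Within the high fat set the score still ran from 11.7 to 14.6. BXD63 and BXD73 had the highest score there and also the highest Myh7. The permutation tests ask only whether 2 genes are unrelated across arrays. Their p-values therefore cannot tell fibre type from the amount of muscle RNA, and the part that this amount has in each r was not tested.

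**Figure D3:**
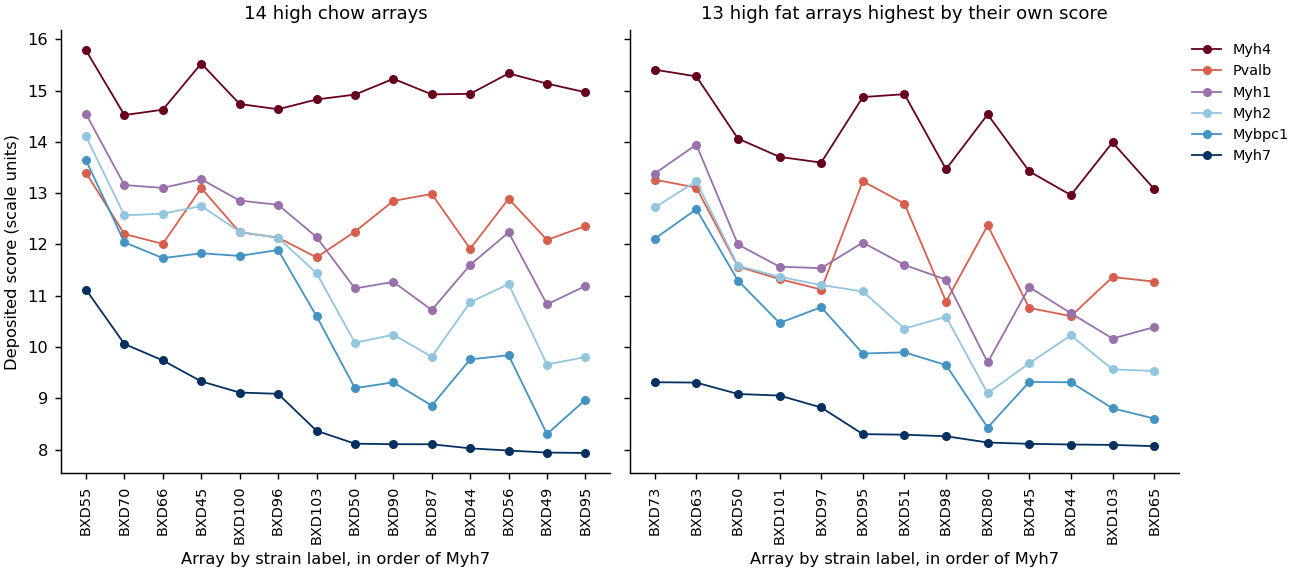
Levels of the fast fibre genes Myh4 and Pvalb (reds) and Myh1 (purple), and of the slow or oxidative fibre genes Myh2, Mybpc1 and Myh7 (blues), in scale units (vertical axis) in the 14 high chow arrays (left) and the 13 high fat arrays with the highest own score (right), ordered by Myh7. In the left panel the 6 arrays from BXD55 to BXD96 are high in Myh7, Mybpc1, Myh2 and also Myh1 (12.8 or more), while Myh4 lies between 14.5 and 15.8 in all 14.

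The next question was whether the label of a strain carried its muscle signal to the other diet, where the pools were independent of those that chose the groups. In all, 12 strains of the high group had a high fat array, with a score of 11.2 ± 1.60 (lowest 8.84, median 11.2, highest 13.8), and 13 strains of the low group had one, with 11.2 ± 2.46 (lowest 8.29, median 11.9, highest 14.6; SD). The groups overlapped over nearly their whole range, and the difference was -0.02 (95% interval -1.73 to 1.70; two-sided permutation p = 0.988). Of the 12, 5 were among the 13 highest high fat arrays and 3 among the 13 lowest, and of the 13 low-group strains 7 were among the highest and 6 among the lowest. With only the strains whose labels matched, 8 high-group strains had 11.4 ± 1.22 (lowest 9.43, median 11.5, highest 13.1) and 6 low-group strains had 10.6 ± 1.84 (lowest 8.29, median 10.8, highest 12.5). That difference was 0.84 (95% interval -1.14 to 2.83; exact two-sided permutation p = 0.316). The intervals reach -1.73 and 2.83, so these data do not show that strain has no part.

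Over all 38 strains the score on chow and on high fat had Pearson r = -0.04 (permutation p = 0.809) and Spearman rho = 0.10 (p = 0.558), and r was -0.04 without BXD80 and BXD79, which lay farthest from the median. Over the 22 matched strains r was 0.20 (permutation p = 0.38) and rho 0.32 (p = 0.141). Gene by gene, none of 38823 genes (0%) differed between the high fat arrays of the high-group and low-group strains by limma at an adjusted p under 0.05, and 2270 had an unadjusted p under 0.05. With the matched strains alone none passed and 1368 had an unadjusted p under 0.05. Of the 608 genes higher on chow, 72 had a positive difference between these high fat arrays, and the median difference over all genes tested was 0.008. The 608 genes tend to move together with the score (median r 0.59 with it over the 42 chow arrays). Their signs are therefore not separate results, and a reversal was not tested. Atp2a1 was 1 of the 72, at 0.14, whereas Tnnt3 (-0.12), Pygm (-0.11), Ppp1r3a (-0.39) and the median of the fast fibre list (-0.22) were negative.

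**Figure D4:**
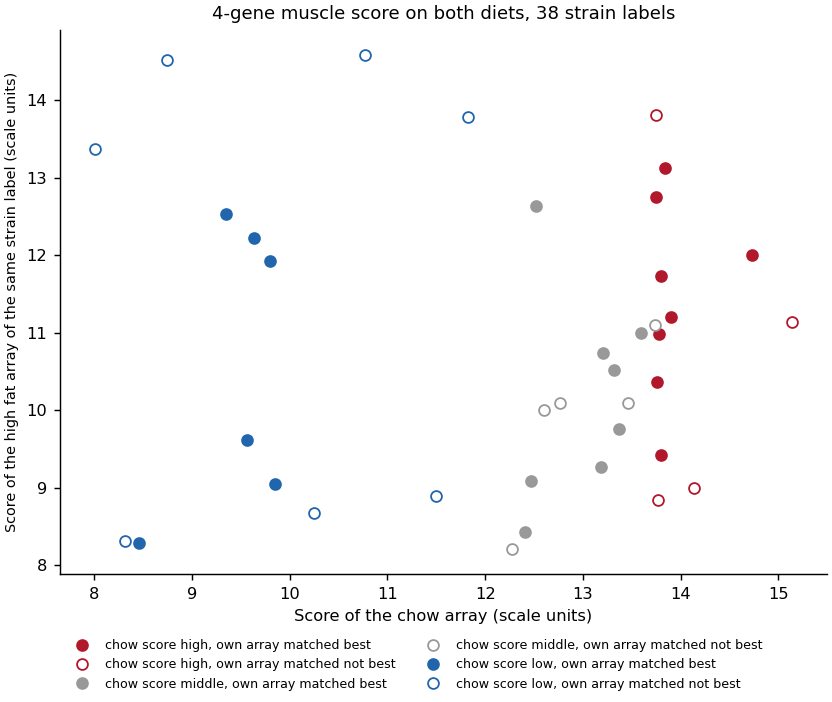
Each point is a strain label with 1 array per diet: score of the chow array (horizontal axis) against score of the high fat array (vertical axis), both in scale units; colours give the chow class, and open circles the 16 labels whose chow array did not match their own high fat array best. Over all 38 labels r was -0.04, and the 12 high-group labels span 8.84 to 13.8 on high fat, against 8.29 to 14.6 for the 13 low-group labels.

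The same 4-gene rule was then applied within the high fat arrays, which share no sample with the chow contrast. The 13 highest had a score of 12.998 ± 0.96 and the 13 lowest 8.85 ± 0.45 (SD). In this split 479 genes were higher (1.23% of 38823) and 17 lower (0.0438%). Centring on fat cell genes gave 180 higher and 0 lower, and a continuous score over all 38 arrays gave 751 higher and 31 lower. Of the 608 genes higher on chow, 421 were also higher here, which is 69.2% of the chow calls and 87.9% of the high fat calls, and 76 of the 421 were in the muscle lists. Both splits used the same 4 genes, so genes that vary with the muscle signal are called in both by construction. The overlap describes the 2 splits and does not test them. No gene was called lower on both diets, and none was called in opposite directions. Atp2a1 averaged 13.8 ± 0.90 in the high and 9.17 ± 0.49 in the low high fat arrays, a difference of 4.58 against 4.42 on chow. Ppp1r3a differed by 3.32 here and 4.09 on chow, and Tpm2 by 2.18 here and 2.54 on chow. Ghr differed by 0.02 here (adjusted p = 0.932).

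Values of 2 genes outside the sarcomere are given side by side. Mef2c differed by 0.02 here and 0.55 on chow, and Slc38a4 by 0.97 here and 1.84 on chow. The B cell list had a median difference of -0.59 here and 0.24 on chow, with no member past the threshold on either diet. No gene had a contrast that differed between diets in a limma interaction test with strain as a random block at an adjusted p under 0.05 (0 genes, lowest adjusted p 0.445, 3392 genes at an unadjusted p under 0.05). Without the strain block the count was also 0.

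**Figure D5:**
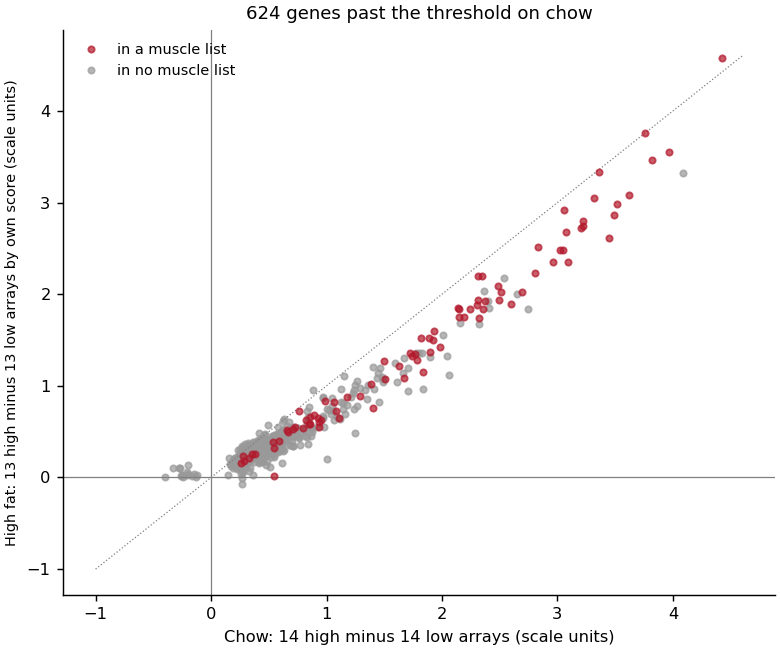
Each point is 1 of the 624 genes past the threshold in the chow contrast: its chow difference (horizontal axis) against its difference between the 13 highest and 13 lowest high fat arrays by their own score (vertical axis), in scale units; muscle list genes are red and the dotted line marks equal differences. Points rise together to Atp2a1 at 4.42 and 4.58, 575 of the 624 lie below the line, and the 16 genes lower on chow lie between 0.0028 and 0.13 on high fat. The 624 were selected on chow, which favours larger chow differences, and 0 genes passed the interaction test between diets.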

How the data were processed

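Pooled RNA of subcutaneous fat was hybridized to Affymetrix arrays. What the authors deposited is a score per feature; per the submitters' processing notes, Affymetrix Expression Console and RMA were used, without versions. Every array averages 8 with an SD of 2, a rescaling that no label describes. The deposited tables held equal values. The column labelled BXD92 was taken as strain BXD92a.

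For each symbol the feature with the highest mean over 80 arrays was kept (26355 features had no symbol). The 14 chow arrays with the highest and the 14 with the lowest 4-gene score were compared with limma 3.58.1 (R 4.3.3, lmFit, eBayes, two-sided, Benjamini-Hochberg, threshold 0.05). The fit was run on simulated data, drawn gene by gene with the spread of the low arrays on both sides. It therefore does not cover groups of unequal spread or genes that vary together. Samples are replicates only as pools of different strains. Permutation tests used 100000 resamples, or were exact where a side had under 10 arrays. Interval: Welch, 95%. Python 3.11.15, SciPy 1.17.1 and matplotlib 3.10.9 were used. The interaction fit had a strain correlation of 0.19.

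The rule, the 31 lists and the tests were chosen with earlier results of these data known. Named genes were the score genes, the 3 largest differences of each muscle list, the 12 largest in no list, the 12 most negative, 2 of each other list with a call, and a fixed set of markers, without predicted models. Strain labels were checked over 100 genes with at least 16 arrays in each of 2 clusters. Number of arrays limits the precision. Alternatives covered group size, score genes, feature choice, normalization, filters, covariates, robust fitting, centring, strains, single arrays and label matching. Some genes that this rule names are not reported here.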

Additional observations from a re-analysis of the deposited data

How the results depend on the processing

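The count of genes higher in the high chow arrays (608) stayed between 466 and 682 under 12 alternatives and between 564 and 618 when each of the 28 arrays was left out in turn. The count of lower genes (16) was less stable: 10 with 21 arrays per side, 52 with a continuous score, 55 with the score of Ttn and Neb, 9 without the lowest 40% of genes, 102 with robust regression and 0 after centring on fat cell genes. Leaving out single arrays gave 7 (BXD98) to 36 (C57BL/6J), with 30 without BXD73 and 8 to 10 without BXD44, BXD45, BXD55, BXD63, BXD65, BXD75, BXD79, BXD92a, BXD97 or DBA/2J. In the high fat split by own score (479 higher, 17 lower), a continuous score gave 751 and 31, centring on fat cell genes 180 and 0, and the filter on low genes 11 lower. For the same strains on high fat, the score difference of -0.02 turned to 0.14 with 21 arrays per side (permutation p = 0.822), 0.13 with Myh4 and Actn3 (p = 0.874) and 0.84 with label-matched strains (exact permutation p = 0.316), and r of -0.04 turned to 0.20 with label-matched strains; none passed the threshold. The causes were not tested. Leaving out single arrays and matching labels were chosen after seeing the data. No paired analysis was possible because the groups come from different strains and no number pairs them. Array number and unknown batches limit what can be told apart.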
